A study of Mus musculus with 23 samples.

Results

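The 6 mouse genes Tpd52, Dnah8, Gm44748, Bcar3, Zfhx3 and Gng12 had the largest excess of RNA crosslink sites with ΔZF1 CTCF over wild-type CTCF, in ESC for the first 3 and in NPC for the others. They were chosen by that excess, as the 3 genes per cell type with the highest ratio of ΔZF1 to WT sites among genes whose sites in these lists summed to 50 or more (3931 genes in ESC and 2370 in NPC), out of 13608 annotated genes with at least 1 site in any list. The excess itself is therefore a description of the choice. What the choice did not use is where the added sites lay in each gene, which bases they fell on, and what happened in the surrounding megabase. Most of the added sites lay in introns in 5 of the 6 genes and in coding exons in Dnah8. They were absent from the first 126 kb of Bcar3 and the first 767 kb of Zfhx3, filled 1 stretch of a single intron in Gm44748, and ended 64.2 kb before the 3′ end in Dnah8. In the cell type of choice, the scaled log2 ratio of the summed sites in the flanking 500 kb lay between -0.19 and 0.44.

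CTCF is a zinc finger protein that binds DNA at insulators and loop anchors and also contacts RNA, partly through its zinc finger 1 (ZF1). In iCLIP2, ultraviolet light links a protein to the RNA it touches, the protein is pulled down, and cDNA synthesis halts beside the linked base, so that the end of the cDNA marks a contact to the nucleotide. Ultraviolet light links proteins to uridine more readily than to other bases. A protein that meets nascent transcripts gives sites in introns, which are removed from mature mRNA, while contacts to mature mRNA fall in exons.

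All groups came from E14 mouse embryonic stem cells in which the endogenous CTCF carries the AID2 degron and a doxycycline-inducible Flag-Halo CTCF sits at the Tigre locus. The rescue protein was wild-type CTCF (WT) or CTCF missing a piece of ZF1 (ΔZF1), and each rescue line was a single clone, so that the mutation and the clone cannot be told apart. Cells of every group, controls included, received 1 µM 5-Ph-IAA to degrade endogenous CTCF and 1 µg/mL doxycycline for 24 h, as ESC or after 2 days of differentiation to NPC. They were crosslinked with 400 mJ/cm2 at 254 nm or, for the noXL control, not crosslinked, and CTCF was pulled down by its Flag tag. The noXL libraries were made from the WT rescue line only, so no control without crosslinking exists here for the ΔZF1 clone. Of 23 libraries, 4 belonged to each group except NPC WT, with 3.

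The deposited values are 1 list of crosslink sites per group, called on the merged libraries, so no replicate spread can be given and no test was made. The lists held 451137 (ESC WT), 231636 (ESC ΔZF1), 158968 (ESC noXL), 239258 (NPC WT), 158490 (NPC ΔZF1) and 107227 (NPC noXL) sites on the nuclear chromosomes, of which 429119, 217770, 150821, 230147, 153211 and 102002 lay in genes on the annotated strand. Read depth per site is unknown. Ranges in parentheses are 95% Wilson intervals of counting error alone and do not cover differences between cultures. Ratios are log2 of ΔZF1 over WT sites with 1 added to each count, divided by the same ratio of all genic sites. The naive pluripotency genes summed to 303, 289 and 227 sites per 100000 genic sites in ESC WT, ΔZF1 and noXL and to 13, 15 and 16.7 in NPC. Of 8 neural progenitor genes, Nes held 28, 32 and 14 sites in the NPC lists and 2, 0 and 0 in ESC, and the other 7 held at most 2 in any list. Mesoderm and 2-cell-like genes had no site in any list. Among primitive endoderm genes, Lamb1 held 41 sites with WT and 9 with ΔZF1 in ESC and Sparc 56 and 13 (ratios -1.09 and -1.05), and in NPC Lamb1 held 97 and 47 and Sparc 38 and 12 (-0.57 for the summed list). Of the other 6 primitive endoderm genes, Dab2 had 1 site in NPC ΔZF1 and Gata4, Gata6, Sox17, Foxa2 and Pdgfra none in any list. The 8 trophectoderm genes summed to 37 WT and 23 ΔZF1 sites in ESC, all in Tfap2c, and to 80 and 32 in NPC (-0.71), mostly in Krt8 and Krt18. The part of these differences in the values of the 6 genes was not tested.

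Among the genes whose WT and ΔZF1 sites summed to 20 or more, 446 of 6518 (6.84%) had a ratio of at least 1 in ESC and 355 (5.45%) a ratio of at most -1. In NPC these were 304 (5.76%) and 388 (7.36%) of 5274 genes. The median ratio was 0.04 in ESC and -0.04 in NPC. Of the 6 genes, 3 were tested in ESC and 4 in NPC, and all of these were at 1 or above, which the choice fixed for all but Tpd52 in NPC. At the edge of the choice, the third gene in ESC (Tpd52) had a ratio of 3.21, and the next 2 were Celsr1 (12 WT and 51 ΔZF1 sites, 2.98) and Epb41l4a (14 and 55, 2.88). In NPC the third gene (Gng12) stood at 3.85, followed by Efna5 (11 and 88, 3.48) and Smyd3 (7 and 58, 3.47). The 6 genes together held 86 of the genic sites of ESC WT (0.02%) and 466 of ESC ΔZF1 (0.214%), and 39 (0.0169%) and 316 (0.206%) in NPC.

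Tpd52 encodes tumour protein D52, a coiled-coil protein of vesicle trafficking. It lies on mm10 chromosome 3 from 8925593 to 9004723 on the minus strand and spans 79.1 kb. The WT, ΔZF1 and noXL lists held 57, 271 and 28 of its sites in ESC, and 21, 74 and 9 in NPC. The ΔZF1 list was thus the highest in both cell types, although only the ESC lists served to choose the gene. In NPC, where Tpd52 stood 11th of 2370 genes, the ratio was 2.36 (1.71 to 3.10), against 3.21 (2.82 to 3.64) in ESC. Per 100000 genic sites its level was 13.3, 124 and 18.6 in the ESC lists and 9.12, 48.3 and 8.82 in the NPC lists.

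Dnah8 encodes an axonemal dynein heavy chain, a motor of the outer arm that bends cilia and flagella. The gene covers 253 kb of chromosome 17 (30624354 to 30877365, plus strand). Its sites in ESC numbered 2 with WT, 109 with ΔZF1 and 5 without crosslinking, against 1, 2 and 3 in NPC. The NPC lists were all at or under 3 sites, so no ratio is given there. In ESC the counts differed 54.5-fold, and the scaled log2 ratio was 6.17 (4.87 to 8.63).

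Gm44748 is annotated as a long intergenic noncoding RNA with 1 transcript of 5 exons, on chromosome 7 (41128646 to 41284220, minus strand, 156 kb). The ESC lists held 2 sites with WT, 71 with ΔZF1 and 6 with noXL. No site was found in any NPC list, which allows up to 1.3, 1.96 and 2.94 sites per 100000 genic sites with WT, ΔZF1 and noXL when 3 sites are taken as the limit of a count of 0. The ESC ratio was 35.5 before scaling (9.58 to 132) and 5.56 on the scaled log2 scale (4.24 to 8.02).

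Bcar3 encodes an SH2 domain adaptor that binds the docking protein p130Cas (Bcar1) and acts in cell adhesion and motility. It occupies 236 kb of chromosome 3 (122294136 to 122530191, plus strand). Its counts with WT, ΔZF1 and noXL were 3, 69 and 6 in NPC, and 2, 0 and 4 in ESC. The gene was thus close to empty in 5 lists and filled in 1. The NPC ratio was 23 unscaled (7.66 to 69.1) and 4.72 scaled (3.52 to 6.70).

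Zfhx3 encodes a large transcription factor with homeodomains and zinc fingers that is known in neuronal differentiation. It spans 1020 kb of chromosome 8 (107942644 to 108961630, plus strand). In NPC 10 sites were called with WT, 124 with ΔZF1 and 39 with noXL, and in ESC 9, 10 and 17. Here the noXL list stood above the WT list of the same clone in both cell types. Scaled to genic sites, noXL exceeded WT by a log2 of 3.04 (2.15 to 4.12) in NPC and 2.36 (1.29 to 3.56) in ESC, and NPC ΔZF1 exceeded NPC noXL by 1.06 (0.57 to 1.60), against a ratio over WT of 4.09 (3.31 to 5.13).

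Gng12 encodes a gamma subunit of heterotrimeric G proteins, which carry signals from membrane receptors together with a beta subunit. It covers 125 kb of chromosome 6 (66896397 to 67021350, plus strand). The NPC counts were 4 with WT, 47 with ΔZF1 and 14 with noXL, whereas those in ESC were 14, 5 and 16. In ESC the ΔZF1 list was thus the lowest. The ratio was 3.85 (2.73 to 5.56) in NPC and -0.34 (-1.92 to 0.91) in ESC, where a pseudocount of 5 turned it to 0.05. As for Zfhx3, NPC noXL lay above NPC WT, by 2.76 (1.45 to 4.51), and NPC ΔZF1 lay above NPC noXL by 1.09 (0.31 to 2.01).

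**Figure D1:**
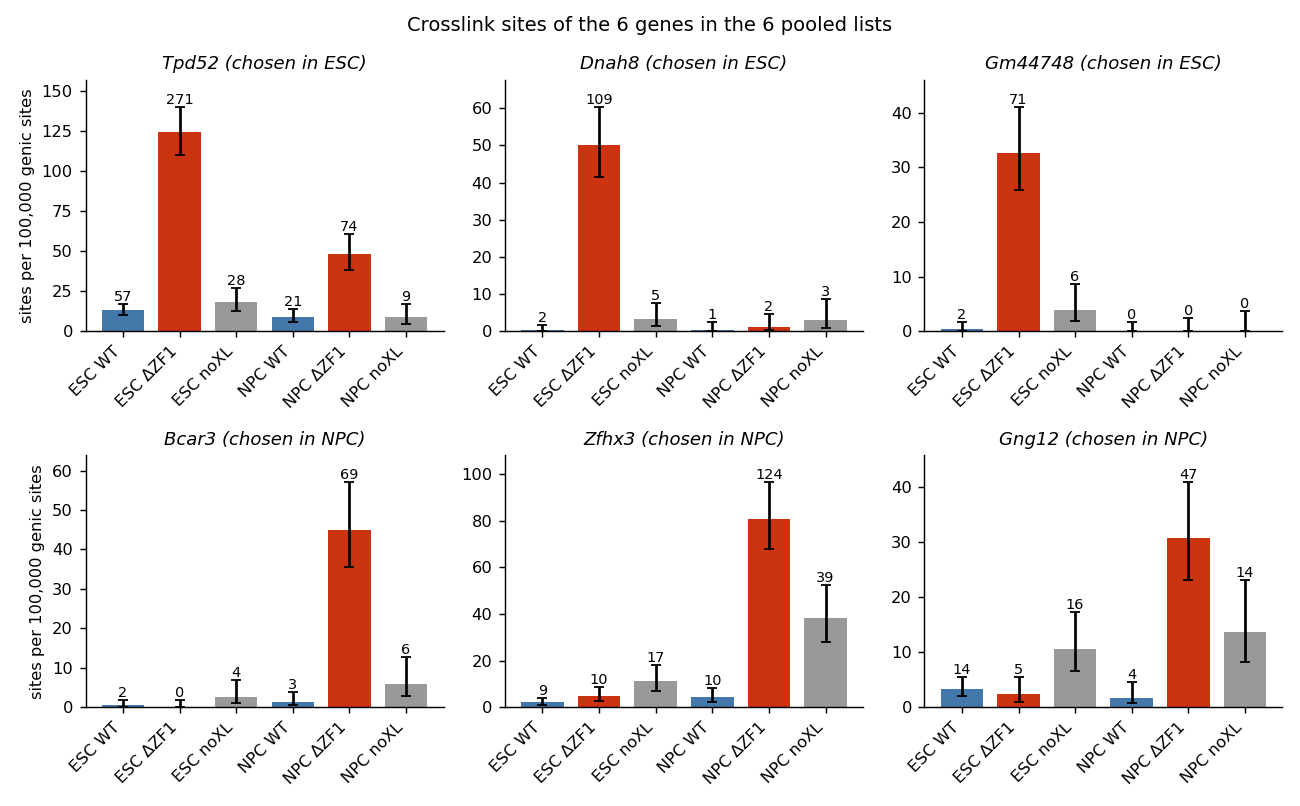
Bars give the sites of each gene per 100,000 genic sites of the list (y axis, from 0, a scale of its own per gene), error bars the 95% Wilson interval of counting error, and the numbers the sites themselves, for WT (blue), ΔZF1 (red) and noXL (grey). Tpd52 is highest with ΔZF1 in ESC (271) and NPC (74), the other 5 genes in 1 cell type only, and noXL lies above WT per 100,000 genic sites for all 6 genes in the cell type of choice.

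The choice favoured high ΔZF1 and low WT counts, so the ratios to noXL are partly fixed by it and are given as a description. The log2 of ΔZF1 over noXL was 2.70 (2.19 to 3.30) for Tpd52, 3.67 (2.66 to 5.17) for Dnah8 and 2.83 (1.86 to 4.20) for Gm44748 in ESC, and 2.74 (1.77 to 4.11) for Bcar3 in NPC. For Tpd52 noXL and WT lay close, at 0.51 (-0.16 to 1.13) in ESC and 0.04 (-1.15 to 1.05) in NPC. The log2 of noXL over WT was 2.51 (0.67 to 4.99) for Dnah8, 2.73 (0.98 to 5.21) for Gm44748 and 1.98 (0.31 to 4.04) for Bcar3, from 5, 6 and 6 noXL sites, so that noXL stood above WT in these genes as in Zfhx3 and Gng12.

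In Tpd52 the added sites filled the 5′ part of the gene. Counted in 4 equal parts of the body from the 5′ end, ESC WT had 20, 0, 4 and 33 sites and ESC ΔZF1 100, 110, 25 and 36. The NPC lists had 6, 0, 2 and 13 sites with WT and 38, 26, 2 and 8 with ΔZF1. The second of these parts, empty in both WT lists and both noXL lists, held 110 and 26 sites with ΔZF1, while the last, nearest the 3′ end, held 33 and 36 in ESC (scaled ratio 1.10, 0.43 to 1.78) and 13 and 8 in NPC (-0.05, with an interval that spans 0). The ESC ratio of the first part was 3.24 (2.61 to 3.99). Most of the added sites lay in the first intron of the transcript with the longest exonic length, ENSMUST00000120143.7. That intron is 50.6 kb long and held 12, 229 and 7 sites with WT, ΔZF1 and noXL in ESC, and 2, 62 and 0 in NPC. Sites occurred in 17 of 20 equal bins of the body in ESC ΔZF1, with 11.8% of them in the fullest bin.

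Exons and introns of Tpd52 gave different ratios. The exon sites numbered 34 in ESC WT and 20 in ESC ΔZF1, a scaled ratio of 0.24 (-0.57 to 1.00), and the intron sites 23 and 251, a ratio of 4.37 (3.82 to 5.04). In NPC the exons held 16 sites with WT and 4 with ΔZF1 (-1.18, -2.92 to 0.10) and the introns 5 and 70 (4.15, 3.13 to 5.66). The intervals of exon and intron do not overlap in either cell type. The intron share of Tpd52 was 40.4% (28.6 to 53.3) in ESC WT and 92.6% (88.9 to 95.2) in ESC ΔZF1, where introns make up 90.5% of the body, and over the whole lists it was 33.4% and 31.9% of genic sites.

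**Figure D2:**
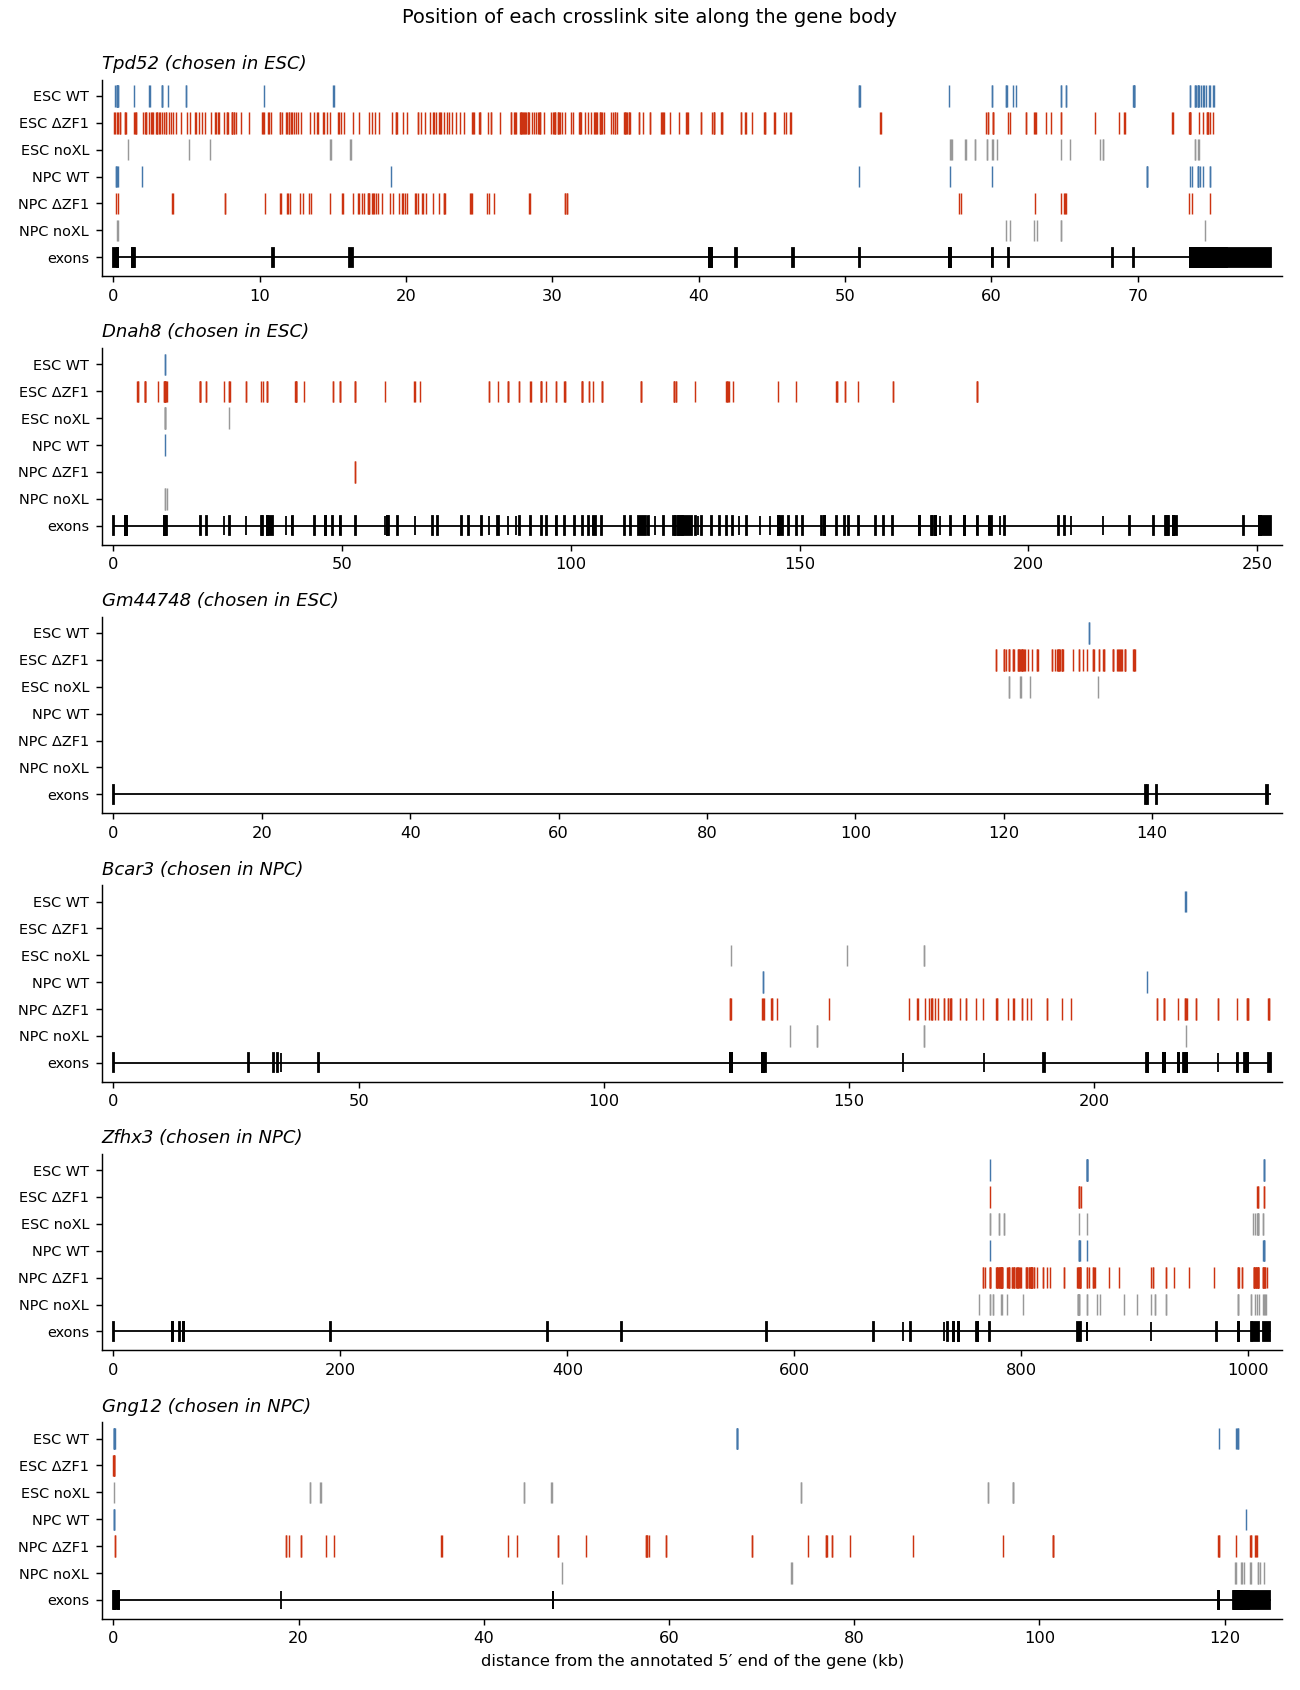
Each tick is 1 crosslink site at its distance from the annotated 5′ end (x axis, kb), in a row per list (WT blue, ΔZF1 red, noXL grey), above the exons of all annotated transcripts (black). ΔZF1 sites fill the 5′ part of Tpd52 in ESC and NPC, reach 189 kb in Dnah8, lie between 119 and 138 kb in Gm44748, start at 126 kb in Bcar3 and at 767 kb in Zfhx3, and are spread along Gng12.

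In Dnah8 more ΔZF1 sites lay in exons than in introns, which held for none of the other 5 genes in the cell type of choice. Of its 109 sites in ESC ΔZF1, 86 lay in coding sequence, 1 in a 5′ UTR and 22 in introns, although introns make up 89.4% of the body. Exons thus carried 3.24 sites per kb and introns 0.0973. Exons were also the denser part in Bcar3, Zfhx3 and Gng12, whose values are given with each gene. The 87 exon sites fell in 40 of the 93 exons of the transcript ENSMUST00000236140.1, with no more than 7 in any of them. At 3 exons a site lay on the last base before the intron, and none lay on a first base. The intron share of 20.2% (13.7 to 28.7) was below that of the genic sites of the list (31.9%). The first site lay 5.24 kb and the last 189 kb from the 5′ end. Downstream of the last site, 64.2 kb of the gene with 6.05 kb of exon held no site in any of the 6 lists, whereas the 184 kb from first to last site held 20.3 kb of exon. All 109 sites were inside the span of 2 annotated transcripts of 83 exons and the type retained_intron, which end at 30816313, and inside the full-length coding transcripts as well.

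In the other lists Dnah8 had sites mainly in exon 2. In ESC WT both were in exon 2, as were 4 of the 5 ESC noXL sites, the single NPC WT site and 2 of the 3 NPC noXL sites. ESC ΔZF1 had 7 sites in this exon. Both NPC ΔZF1 sites lay in exon 18.

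In Gm44748, all 71 sites of ESC ΔZF1 fell between 41146563 and 41165269, a stretch of 18.7 kb near the 3′ end of the 139 kb first intron. None lay in its exons, which sum to 0.658 kb. The 119 kb before this stretch and the 17.9 kb after it held no site in any list, and the 2 WT and 6 noXL sites of ESC were inside it. Sites occurred in 3 of the 20 bins of the body, with 38% in the fullest. The last ΔZF1 site lay 137.657 kb from the annotated 5′ end, and the next annotated exon of the gene starts at 138.982 kb. Whether the sites belong to this transcript was not tested.

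The first 126 kb of the annotated body of Bcar3, with 0.836 kb of exon, held no site in any of the 6 lists. The first site of NPC ΔZF1 lay at 122419766, between the start of the retained_intron transcript ENSMUST00000200544.1 at 122419757 and that of the coding transcript ENSMUST00000029766.8 at 122419778, and the last at 122529703, shortly before the end of the gene. Of the 69 sites, 48 lay in introns, 18 in coding sequence, 2 in a 5′ UTR and 1 in a noncoding exon. The third intron of that transcript (49.8 kb) held 36 of them, and 9 of its 12 exons held at least 1. The density was 3.75 sites per kb of exon and 0.208 per kb of intron. In NPC WT the 3 sites were all coding, so that the introns held 0 sites with WT and 48 with ΔZF1. The lower limit of that scaled log2 ratio from counting error was 4.23, and the choice itself favoured few WT sites. Exons held 3 WT and 21 ΔZF1 sites (3.05, 1.74 to 5.05).

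In Zfhx3 a longer 5′ stretch was empty. The first 767 kb, with 4.54 kb of exon, held no site in any list but 1 in NPC noXL, and the first ΔZF1 site of NPC lay at 108709291, between the starts of the coding transcripts ENSMUST00000188994.1 at 108703100 and ENSMUST00000043896.9 at 108714644. In NPC ΔZF1 the introns held 81 sites, the coding sequence 35, and 5′ and 3′ UTRs 5 and 3. The fullest of 20 bins, in which both transcripts start or run, held 62 of the 124 sites. The 88 kb intron 7 of the longest transcript accounted for 68 sites with ΔZF1, 1 with WT and 9 with noXL in NPC. That WT site lies in the 5′ UTR of ENSMUST00000043896.9. The density over the gene was 2.05 sites per kb of exon and 0.0812 per kb of intron. Sequence that is intron in every transcript of the gene held no WT site, and the choice favoured few of them. The lower limit of the scaled log2 ratio there was 4.99, while exons held 10 WT and 43 ΔZF1 sites (2.59, 1.72 to 3.67). Leaving out sites that also lie in another gene on the strand left 116 ΔZF1 sites in Zfhx3, 67 in Bcar3 and, in ESC, 70 in Gm44748. In NPC noXL, 15 of the 39 sites were intronic.

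The ΔZF1 sites of Gng12 were spread from end to end. In NPC ΔZF1 they ran from 0.153 kb to 123 kb, with 9, 14, 10 and 14 sites in the 4 equal parts of the body, and occurred in 14 of 20 bins (36% of bins when 50 were used). Introns held 35 of the 47 sites (0.291 per kb) and exons 12 (2.54 per kb), 6 of these in the 3′ UTR. The WT list had 3 sites in the 5′ UTR, 1 in the 3′ UTR and none in introns. The lower limit of the scaled log2 ratio in introns was 3.77, again with few WT sites favoured by the choice. Exons held 4 WT and 12 ΔZF1 sites (1.97, 0.62 to 3.73). The noXL list of NPC was placed otherwise, with 10 of 14 sites in the 3′ UTR. In ESC all 5 ΔZF1 sites lay in the first 0.062 kb of the gene, while 15 of the 16 ESC noXL sites lay in introns.

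**Figure D3:**
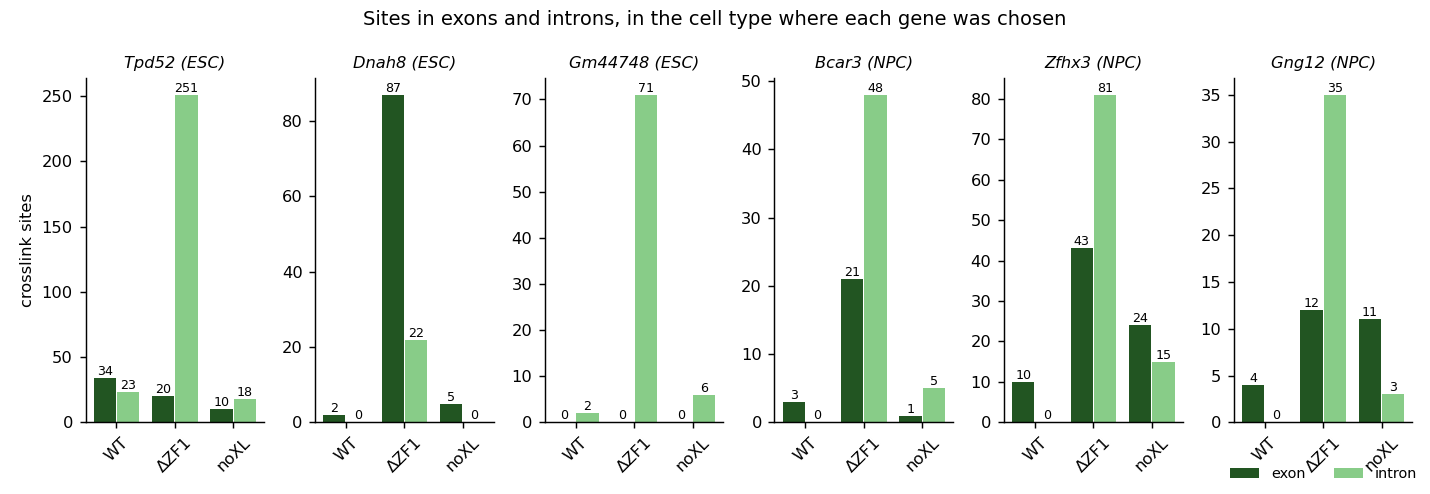
Bars count the sites in exons (dark) and introns (light) of each gene in the WT, ΔZF1 and noXL lists of the cell type in which the gene was chosen (y axis from 0, a scale of its own per gene). Introns hold more ΔZF1 sites than exons in every gene except Dnah8 (87 in exons, 22 in introns), and Tpd52 has 20 exon sites with ΔZF1 and 34 with WT, a scaled ratio of 0.24.

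The intron share also differed between the whole lists of NPC, where 26.9% of genic sites were intronic with WT and 39.6% with ΔZF1, a difference not seen in ESC. For Bcar3, Zfhx3 and Gng12 the intron share with ΔZF1 was 69.6% (57.9 to 79.2), 65.3% (56.6 to 73.1) and 74.5% (60.5 to 84.7), above that of the list in each case. Introns make up 97.6%, 97.9% and 96.2% of these bodies, so the shares lay below that of the sequence. Exon sites of these genes also stood above WT, as given with each gene. How far the wider shift of NPC ΔZF1 contributed to each gene was not tested.

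Most ΔZF1 sites stood alone. Of the sites of ESC ΔZF1 or NPC ΔZF1 in the cell type of choice, 90.4% in Tpd52, 78.9% in Dnah8, 90.1% in Gm44748, 88.4% in Bcar3, 90.3% in Zfhx3 and 89.4% in Gng12 had no other site within 8 nt, beside 79.1% over the whole ESC ΔZF1 list and 89.6% over that of NPC. Because the choice favoured few WT sites, positions were compared from the WT side. Of the 57 ESC WT sites of Tpd52, 9 had an ESC ΔZF1 site within 5 nt and 31 within 50 nt, and the count within 5 nt averaged 2 after moving the sites by 500 or 1000 nt either way. Of the 10 NPC WT sites of Zfhx3, 2 had an NPC ΔZF1 site within 5 nt and 9 within 50 nt. Both ESC WT sites of Dnah8 had one within 50 nt, as had 1 of the 3 NPC WT sites of Bcar3, and none of the 2 in Gm44748 and 4 in Gng12. Between cell types, 10 of the 74 NPC ΔZF1 sites of Tpd52 had an ESC ΔZF1 site within 5 nt, against 6 after such moves. Within 50 nt the count was 34 of 74. The moves were made for 5 nt only, so none of the counts within 50 nt has such a level beside it. With WT, 7 of the 21 NPC sites of Tpd52 had an ESC site within 5 nt, against 0.5 after moves.

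The bases of the highest-scoring sites are shown because the base under a site separates lists made with and without ultraviolet light. Each run is 21 nt of the mm10 RefSeq sequence on the gene's strand, written 5′ to 3′ as RNA, with the crosslinked base in capitals.
Tpd52, ESC ΔZF1, intron, chr3:8981761-8981781, minus strand: uugaugaguuUcaguagggcc
Tpd52, ESC ΔZF1, intron, chr3:8988311-8988331, minus strand: guggcuuauuUcugcucacgu
Dnah8, ESC ΔZF1, last base of exon 59, chr17:30758398-30758418, plus strand: aucgcagacaGgugugcacug
Gm44748, ESC ΔZF1, intron, chr7:41164234-41164254, minus strand: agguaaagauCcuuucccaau
Bcar3, NPC ΔZF1, intron, chr3:122525502-122525522, plus strand: agggacuuguUccugcaaucu
Zfhx3, NPC ΔZF1, 5′ UTR, chr8:108715031-108715051, plus strand: gccccgugggUgaauccccgc
Gng12, NPC ΔZF1, intron, chr6:66931790-66931810, plus strand: ugcucuggcaGaggacucagg

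These sites had PureCLIP scores of 20.9, 18.7, 15.7, 20.1, 20.3, 52.1 and 18.6. The Zfhx3 site is the only one of the 7 with a site within 50 nt in all 6 lists, noXL included. The second Tpd52 site had a neighbour within 50 nt in NPC ΔZF1 as well, and the other 5 had none outside the list they came from. Each gene is shown by its highest-scoring site, and Tpd52 also by its second for that NPC neighbour. Over the 2 highest-scoring sites of every gene, 12 in all, the base was uridine in 5, G in 4, C in 2 and A in 1. The Dnah8 run shows the gu of the splice donor right after the capital.

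Over all ΔZF1 sites in the cell type of choice, uridine was the crosslinked base in 53.9% (47.9 to 59.7) of sites in Tpd52, 54.9% (43.4 to 66) in Gm44748, 55.1% (43.4 to 66.2) in Bcar3, 54.8% (46.1 to 63.3) in Zfhx3 and 63.8% (49.5 to 76) in Gng12. Uridine makes up between 27.4% and 30.7% of the bodies of the 6 genes. These 5 shares lay near those of the whole lists, 48.6% for ESC ΔZF1 and 58.5% for NPC ΔZF1, and their intervals lay above those of the noXL lists (28.3% and 27.9%). Dnah8 differed, with 36.7% (28.2 to 46.1), an interval below the ESC ΔZF1 list and reaching down to that of ESC noXL. The exon sites of that whole list were at 48.2%. Of the 22 intron sites of Dnah8, 31.8% were on uridine, beside 51.3% for intron sites of the ESC ΔZF1 list and 31.6% for those of ESC noXL.

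**Figure D4:**
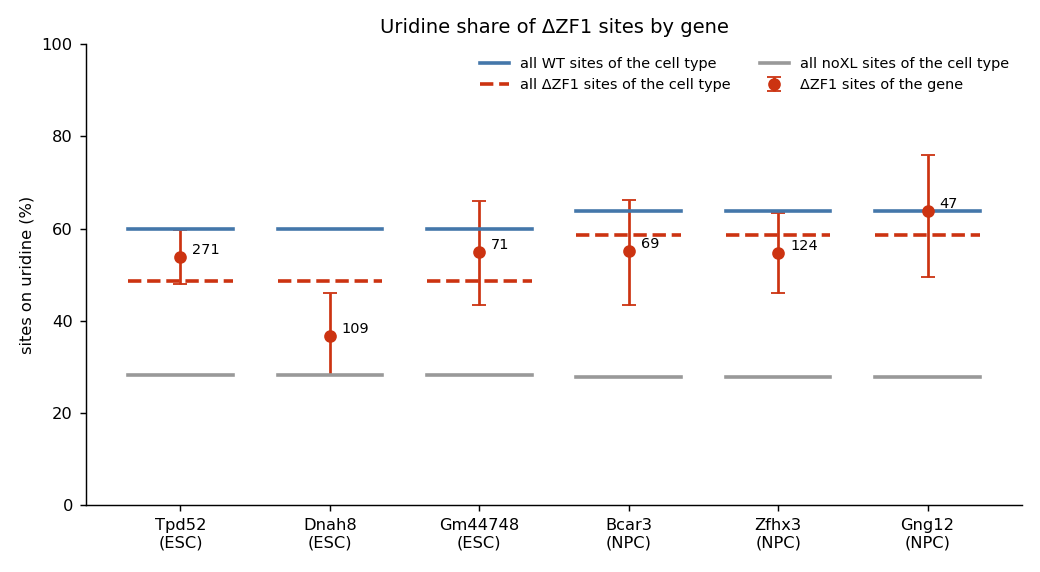
Points give the percentage of ΔZF1 sites on uridine (y axis) in the cell type in which each gene was chosen, with the 95% Wilson interval and the number of sites, beside lines for all WT, ΔZF1 and noXL sites of that cell type. Dnah8 (36.7%) lies below the ESC ΔZF1 list (48.6%), and the intervals of the other 5 genes lie above the noXL lists.

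The noXL sites of the NPC genes had a different base. In NPC noXL, 7 of 39 Zfhx3 sites (17.9%, 8.98 to 32.7) and 2 of 14 Gng12 sites (14.3%, 4.01 to 39.9) were on uridine, against 54.8% and 63.8% with ΔZF1. The 3 genes chosen in NPC summed to 56.7% uridine (50.3 to 62.8) over 240 NPC ΔZF1 sites and to 16.9% (9.48 to 28.5) over 59 NPC noXL sites, and these intervals do not overlap. The 3 genes chosen in ESC summed to 49.9% (45.3 to 54.5) over 451 ESC ΔZF1 sites and 30.8% (18.6 to 46.4) over 39 ESC noXL sites, with intervals that overlap.

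The scores of the added sites were ordinary for their lists. The median PureCLIP score, a log ratio of posterior probabilities for a position being crosslinked, was 2.56 in Tpd52, 2.79 in Dnah8 and 2.4 in Gm44748, beside 2.72 for the ESC ΔZF1 list. In NPC it was 4.69 in Bcar3, 3.35 in Zfhx3 and 3.55 in Gng12, beside 3.93. Between 42.7% and 51.4% of the sites of each gene scored above the median of their list. A run of 4 uridines within 10 nt of the site, UUUU searched on the gene's strand, was present for 19.6% of the Tpd52 sites, 10.1% in Dnah8, 22.5% in Gm44748, 4.35% in Bcar3, 9.68% in Zfhx3 and 17% in Gng12. Over the whole lists it was 15.1% in ESC ΔZF1 and 15.8% in NPC ΔZF1, and of all 21-nt windows of these gene bodies between 9.25% and 14.2% held one. Repeats, as soft-masked in the genome, lay under 28% of the Tpd52 sites and 26.8% of those of Gm44748, and under 12.8%, 10.1%, 11.3% and 19.1% in Dnah8, Bcar3, Zfhx3 and Gng12. Introns of the lists as a whole were at 30.5% in ESC ΔZF1 and 23.5% in NPC ΔZF1.

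Around the genes the ratio lay between -0.19 and 0.44, above 0 for all but Gm44748. In the 500 kb on each side, both strands together and the gene itself left out, it was 0.31 (-0.08 to 0.68) for Tpd52 from 144 WT and 90 ΔZF1 sites, 0.37 (-0.11 to 0.84) for Dnah8 from 89 and 58, and -0.19 (-0.52 to 0.13) for Gm44748 from 239 and 106. In NPC it was 0.44 (0.11 to 0.76) for Bcar3 from 161 and 145 sites, 0.22 (-0.40 to 0.83) for Zfhx3 from 48 and 37, and 0.17 (-0.16 to 0.49) for Gng12 from 173 and 129. The genes were chosen at the extreme of this ratio and their flanks were not, so a gap between them was largely fixed by the choice. Taken by side and strand in the cell type of choice, windows above 1 lay on the gene's own strand. They were upstream of Tpd52, with 57 WT and 62 ΔZF1 sites (1.10, 0.58 to 1.62), and downstream of Zfhx3, with 1 and 4 sites.

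The genes within these flanks or overlapping a body with at least 20 sites numbered 20 of 203 annotated, and none of the 20 had a ratio of at least 1, beside the 6.84% and 5.76% over all genes. A ratio of at most -1 was found for 2 of the 11 tested in ESC and 0 of the 9 in NPC, beside 5.45% and 7.36% over all genes. Next to Tpd52, Mrps28 lies 1.68 kb beyond its 3′ end on the same strand and held 30 WT and 12 ΔZF1 sites (-0.28, -1.29 to 0.61). Zfp704, 422 kb upstream, held 95 and 82 (0.77, 0.34 to 1.19). Near Dnah8, Zfand3 had fewer sites (90 and 11, -1.94), as had Zbtb10 near Tpd52 (24 and 3, -1.67). Glo1 and AC174471.1 overlap the Dnah8 body on the other strand and held 34 and 32 sites (0.89, 0.20 to 1.58) and 62 and 53 sites (0.76, 0.23 to 1.28). Beside Bcar3, Fnbp1l lies 8.53 kb downstream on the opposite strand (43 and 54, 0.91, 0.34 to 1.49), and Gclm 23.4 kb upstream on the same strand (57 and 43, 0.19, -0.39 to 0.75).

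**Figure D5:**
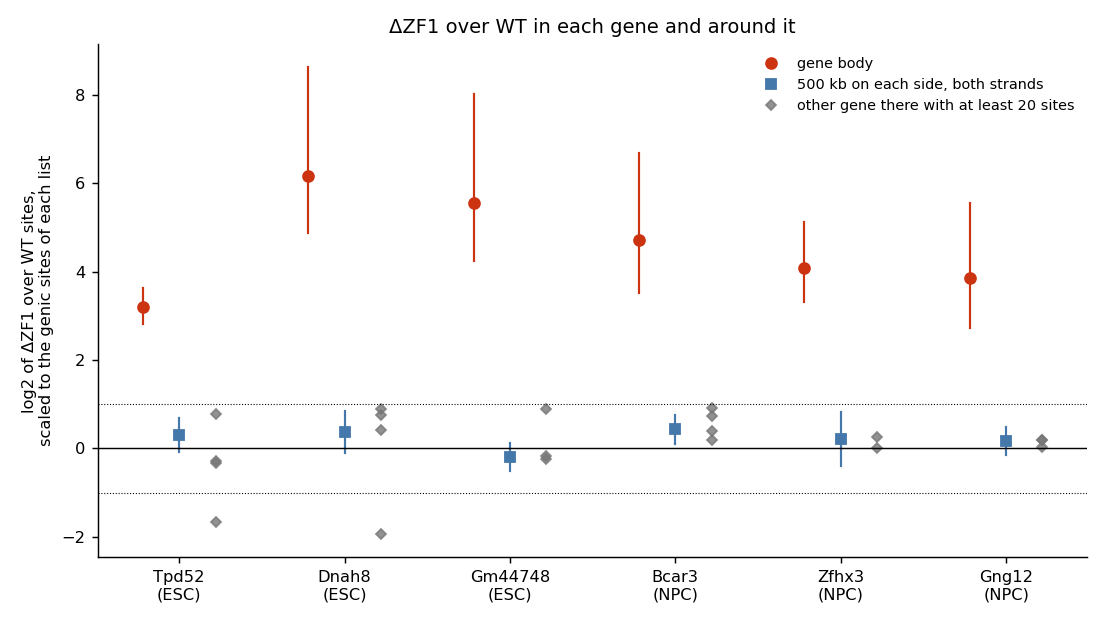
The y axis is the scaled log2 ratio of ΔZF1 over WT sites in the cell type of choice, for each gene body (red), for the 500 kb on both sides (blue), each with the interval from counting error, and for every other gene there with at least 20 sites (grey). Gene bodies, which were chosen by this ratio, lie between 3.21 and 6.17, flanks between -0.19 and 0.44, and dotted lines mark 1 and -1.

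Within 100 kb beyond the gene ends, the strand of the gene was empty of ΔZF1 sites for all genes but Tpd52 and Bcar3. On that strand the ΔZF1 lists had no site within 100 kb on either side of Dnah8, Gm44748, Zfhx3 and Gng12, nor within 100 kb downstream of Bcar3. Bcar3 differed on its upstream side, where 20 NPC ΔZF1 and 22 NPC WT sites lay between 5 and 20 kb away, and 43 and 57 between 20 and 50 kb. Downstream of Tpd52, ESC ΔZF1 had 5 sites and ESC WT 7 within 5 kb, and 4 and 17 between 20 and 50 kb. On the opposite strand of the bodies, ESC ΔZF1 had 5 sites in Dnah8 against 0 with WT, and NPC ΔZF1 had 8 in Gng12 against 0, and the ESC lists had 40 and 48 in Gng12. Whether the added sites came with more RNA of these genes, or with more contacts per RNA, was not tested, since only crosslink sites were analysed and RNA levels were not used here. More cells making an RNA and more RNA per cell cannot be told apart in such bulk libraries.

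Most relatives of the 6 genes had few sites. In the tumour protein D52 family, Tpd52l2 held 62 WT and 35 ΔZF1 sites in ESC (0.17) and 32 and 24 in NPC (0.19). Tpd52l1 held 16 WT and 1 ΔZF1 site in ESC, under the minimum of 20, and 1 and 2 in NPC. Of the 14 axonemal dynein heavy chain genes other than Dnah8, 12 had no site in any list, Dnah2 had 2 in ESC ΔZF1 and Dnah7a 3 in ESC WT. Bcar1, the docking protein that Bcar3 binds, had 53 WT and 58 ΔZF1 sites in NPC (0.71) and 11 and 15 in ESC (1.39), and Efs 18 and 20 in NPC (0.73). Zfhx2 had 108 and 82 sites in ESC (0.59) and none in NPC, and Zfhx4 none at all. Among the 11 other gamma subunits, Gng2 had 5 WT and 25 ΔZF1 sites in NPC (2.70) with 5 in noXL, and none in ESC, and no other gamma subunit gene reached 20 sites in NPC. The beta subunits Gnb1 and Gnb2 stood at 0.26 and -0.37 in NPC. Of the genes in these 6 families other than the members, 6 were tested in ESC with 1 (Bcar1) at 1 or above, and 6 in NPC, also with 1 (Gng2), none at -1 or below, beside the 6.84% and 5.76% of all genes.

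By correlation over the 6 lists alone, among 6045 other genes with at least 50 sites, the genes most like Bcar3 were Rras2 (r = 0.979, with 16 WT, 50 ΔZF1 and 18 noXL sites in NPC and 23, 9 and 12 in ESC) and Gmps (0.973). Those most like Dnah8 were Tcf3 (0.983) and Rab10os (0.969), and those most like Tpd52 were Arhgap11a (0.971) and Ubl3 (0.967). For Gm44748 they were Fkbp9 (0.990) and Grpel2 (0.979), for Zfhx3 Sf3a2 (0.990) and Vbp1 (0.978), and for Gng12 Nsmce2 (0.986) and Raph1 (0.956). With 6 lists, which share clones and cell types, such values describe the order of the lists and not the size of the change, which was far smaller in Tcf3 (49 WT and 52 ΔZF1 sites in ESC) than in Dnah8.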

How the data were processed

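CTCF iCLIP2 reads were demultiplexed and trimmed with Flexbar, aligned to mm10 with STAR and deduplicated by UMI with UMI-tools by the authors, who merged the libraries of each group and called crosslink sites with PureCLIP. Tool versions were not given in the sources used here. The deposited values are 1-nt sites with the PureCLIP score, 1 list per group. The labels' groups were kept. Sites of the autosomes and sex chromosomes were counted on the strand of GENCODE vM21 genes with Python 3 scripts (numpy 2.4.6, pandas 2.3.3 and scipy 1.17.1), tested on simulated data. Ratios used a pseudocount of 1 and the genic sites of each list, genes needed 20 sites for the background and 50 for the choice, and sites within 5 nt were taken as shared. Bases were read from the GRCm38.p6 sequence (mm10). A base was an exon if any transcript of the gene has it as exon. Named genes were the 6 members, the 2 next in rank per cell type, listed relatives and marker genes, neighbours with 20 sites, and the 2 genes most alike per member, with Dnah2, Dnah7a and Tpd52l1 added after their values were seen. Members and lists were chosen with earlier results of these data known. Scores were used only for their medians, for choosing the printed sites and as an alternative filter. Alternatives for filter, scaling, base, overlap, flank and bins were computed.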

Additional observations from a re-analysis of the deposited data

Results flagged for a closer look

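The scaled log2 ratio of Gng12 was below 0 in ESC (-0.34) and above 0 in NPC (3.85). With 1 pooled list per group the difference was not tested. The ESC value rests on 14 WT and 5 ΔZF1 sites, its interval (-1.92 to 0.91) spans 0, and it turned to 0.05 with a pseudocount of 5, so no direction is established in ESC.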

How the results depend on the processing

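The lists have no replicates, so no library could be left out. No paired analysis was possible because every list pools its libraries. The 6 genes were chosen by the highest ratios of these same lists, so their staying at 1 or above was largely fixed by the choice. This holds for the counts of members below as well. In the cell type of choice, 66 combinations of gene and alternative gave ratios between 2.23 (Tpd52, no scaling) and 6.76 (Dnah8, sites near noXL left out). Of these, 63 lay within the counting interval. The exceptions were Tpd52 without scaling (2.23) and with intron sites alone (4.44), and Zfhx3 with intron sites alone (6.24, where WT had none and the value rests on the pseudocount). Zfhx3 in ESC ranged from 0.14 to 2.02 and Gng12 in ESC from -1.32 to 0.05. The number of members at 1 or above was 3 or 4 in ESC and 4 in NPC throughout, the fourth in ESC being Zfhx3 at a minimum of 10 sites. The flanks reached 1 for no member in any of 29 alternatives, which ranged from -2.02 to 0.75, and Zfhx3 at 100 kb had too few sites for a value. Uridine shares ranged from 31.8% to 65.7% and stayed above that of the whole noXL list (28.3% in ESC, 27.9% in NPC), but the lowest, for the intron sites of Dnah8, was close to the 31.6% of ESC noXL intron sites, and 5 of 6 genes stayed above their list in intron share. With 50 bins in place of 20, the share of bins with a site in Gng12 was 36% and not 70%, and the share in the fullest bin changed beyond its interval in 8 of 18 combinations, with a range of 5.9% to 62%. The share of Tpd52 ESC ΔZF1 sites near a WT site was 2.58% within 5 nt, 1.11% at the same position and 8.86% within 50 nt.

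Over all genes, the number at 1 or above in ESC changed from 446 to 703 with a minimum of 10 sites, 144 with a minimum of 50, 99 without scaling and 296 with a score minimum. In NPC it changed from 304 to 545, 113 and 101 under the first 3 of these. The number at -1 or below changed from 355 in ESC to 580, 143 and 3071, and to 145 with a pseudocount of 5, and from 388 in NPC to 759, 72 and 1499, and to 143 with a pseudocount of 5. Without scaling the larger WT lists shift every ratio down, and the minimum sets how many genes are tested. Depth per site is unknown, and the small WT counts limit how finely the ratios can be ranked.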
